A study of Mus musculus with 23 samples.

Results

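The genes described here are 7 genes of the leukotriene pathway, namely Alox5, Alox5ap, Ltc4s, Lta4h, Ephx1, Cysltr1 and Ltb4r1, in macrophages exposed to bacterial lipopolysaccharide (LPS). They were taken as a fixed list of symbols, and each symbol matched 1 of the 55401 genes in the deposited count table. All 7 passed the filter on low counts, as did 18083 genes in all. The cells were mouse bone marrow-derived macrophages (BMDMs), from wild-type mice or from mice labelled Selenow knock-out, which lack a selenoprotein gene by their label. Strain, age, sex and the kind of deletion are not given in the labels. Cells were untreated at 0 h or had received 100 ng/ml LPS for 4, 8 or 24 h. The 8 genotype-by-time groups hold 3 libraries each, apart from knock-out cells after 24 h, with 2.

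Leukotrienes are lipid mediators of inflammation that myeloid cells make from arachidonic acid. 5-Lipoxygenase (Alox5), aided by the membrane protein FLAP (Alox5ap), makes the unstable epoxide leukotriene A4. Leukotriene A4 hydrolase (Lta4h) turns it into leukotriene B4, a chemoattractant for neutrophils, and leukotriene C4 synthase (Ltc4s) joins it to glutathione to give the cysteinyl leukotrienes, which contract smooth muscle and make vessels leaky. Leukotriene B4 acts through the receptor encoded by Ltb4r1, and the cysteinyl leukotrienes act through receptors such as that encoded by Cysltr1. Ephx1 encodes microsomal epoxide hydrolase, which opens epoxides of foreign compounds and of some lipids.

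The promoters of 4 of these genes are shown because their RNA followed different courses: Alox5 and Ephx1 were low at 24 h, whereas Lta4h had come partly back and Ltb4r1 was above its untreated level in some libraries. Each line gives the 250 bases before the RefSeq start site in GRCm38.p6, 5′ to 3′ on the gene's strand.
Alox5: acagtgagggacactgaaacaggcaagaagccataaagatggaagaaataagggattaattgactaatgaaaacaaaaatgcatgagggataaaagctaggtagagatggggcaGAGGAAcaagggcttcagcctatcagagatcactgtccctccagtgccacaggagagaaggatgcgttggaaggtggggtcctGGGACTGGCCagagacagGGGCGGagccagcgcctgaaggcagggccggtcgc
Ephx1: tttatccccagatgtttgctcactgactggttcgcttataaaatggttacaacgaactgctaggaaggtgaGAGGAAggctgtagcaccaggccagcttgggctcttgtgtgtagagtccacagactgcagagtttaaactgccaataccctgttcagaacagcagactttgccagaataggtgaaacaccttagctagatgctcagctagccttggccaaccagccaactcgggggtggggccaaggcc
Lta4h: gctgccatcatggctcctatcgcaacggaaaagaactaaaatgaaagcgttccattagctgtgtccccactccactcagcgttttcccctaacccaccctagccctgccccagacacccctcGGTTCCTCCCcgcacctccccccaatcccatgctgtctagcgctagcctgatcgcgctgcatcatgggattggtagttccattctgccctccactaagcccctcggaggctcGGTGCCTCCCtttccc
Ltb4r1: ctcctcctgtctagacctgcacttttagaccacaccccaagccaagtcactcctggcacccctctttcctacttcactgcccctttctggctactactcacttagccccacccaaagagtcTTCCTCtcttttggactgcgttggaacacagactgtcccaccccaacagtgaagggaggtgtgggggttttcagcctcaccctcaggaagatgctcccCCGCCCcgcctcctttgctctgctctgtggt
Capitals mark matches, on either strand, to GGGCGG (the GC box of the Sp and KLF factors), GAGGAA (a core bound by the myeloid factor PU.1) or GGGANNNNCC (a loose pattern for NF-kB). The Alox5 stretch (chr6:116461179-116461428, minus strand) holds all 3, with the GC box 35 to 30 bases before the start. The Ephx1 stretch (chr1:181017570-181017819, minus strand) holds GAGGAA alone. In the Lta4h stretch (chr10:93453146-93453395, plus strand) the GAGGAA match, read on the minus strand, lies inside 1 of 2 matches to GGGANNNNCC. The Ltb4r1 stretch (chr14:55765712-55765961, plus strand) holds the GC box and GAGGAA, both on the minus strand. These motifs are common, since GGGCGG occurs in 32.7%, GAGGAA in 23.3% and GGGANNNNCC in 17.6% of 32851 such promoters. A match is a run of letters and not a bound site. Promoter entries were matched for 5 of the 7 genes; Alox5ap and Cysltr1 had none, and that of Ltc4s is not shown because it overlaps an annotated Ltc4s exon.

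Counts summed over all genes came to 39001456 to 41819953 in a library, with pairs that overlap several genes counted for each. Selenow itself was at 82.4 to 102% of the wild-type mean of the same time in 4 libraries labelled knock-out (13, 16, 19 and 22, 1 at each time) and at 32.6 to 63.9% in the other 7. The libraries also fell into a first set of 15 and a second set of 8, with 1 library of the second set in each group (3, 6, 9 and 12 in wild-type, 14, 17, 20 and 23 in the labelled knock-out). The labelled knock-out at 24 h thus holds 1 library of the first set, 22. These sets were found in the data, and the labels do not say what they are. Macrophage markers were abundant in every library, summing to 11708 to 27086 CPM (counts-per-million units, on the scaled library size) over 7 genes. The 6 eosinophil genes summed to 1.498 to 1.78 CPM in untreated wild-type libraries, 7.39 to 9.40 at 4 h, 4.12 to 6.94 at 8 h and 3.84 to 20.2 at 24 h, and to 2.01 to 2.47, 7.76 to 12.7, 3.23 to 7.96 and 7.50 to 21.3 CPM in the labelled knock-out. Ccr3 held most of the mean sum at 24 h in both genotypes, while Epx, a defining eosinophil gene, stayed at or below 0.0799 CPM, and their part in the results was not tested.

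The levels per length, as CPM per kilobase of exon, spanned a wide range in untreated wild-type cells. Alox5ap was at 244 ± 17.6 CPM per kb (SD, n = 3), far above the next gene, Ltc4s, at 21.1 ± 12.7. Ephx1, Lta4h and Alox5 followed at 9.14 ± 1.92, 8.99 ± 0.291 and 8.63 ± 0.714 CPM per kb, then Cysltr1 at 4.66 ± 0.416 and Ltb4r1 at 0.635 ± 0.109. Alox5ap did not overlap with Ltc4s, nor Alox5 with Cysltr1, nor Cysltr1 with Ltb4r1, while Ltc4s, Ephx1, Lta4h and Alox5 overlapped with their neighbours in this order. At 24 h of LPS in wild-type cells the order was Alox5ap (208 ± 53.0 CPM per kb), Cysltr1 (11.5 ± 2.20), Lta4h (5.38 ± 0.653), Ltb4r1 (1.99 ± 1.38), Ltc4s (0.604 ± 0.109), Alox5 (0.447 ± 0.154) and Ephx1 (0.238 ± 0.0740). The first 4 did not overlap with one another, and the last 3 overlapped with their neighbours. The FLAP gene thus stood first in every group, and Ltc4s, Alox5 and Ephx1 were the last 3 at 24 h in both genotypes.

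**Figure D1:**
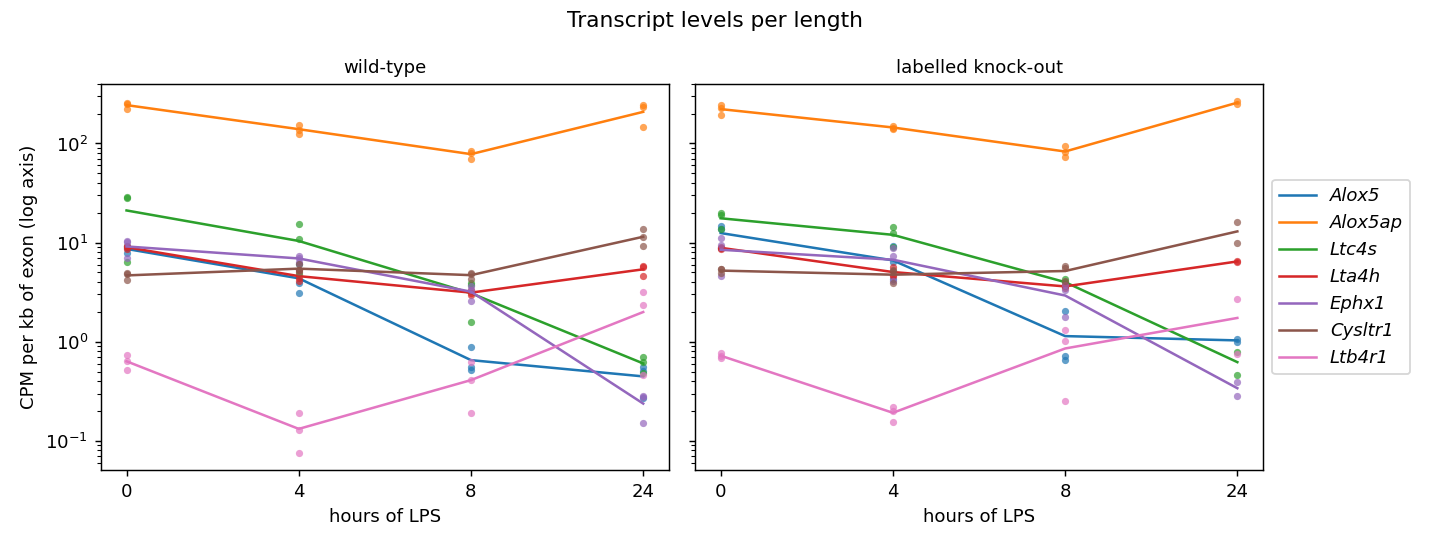
Level of each gene per length (CPM per kb of exon, log axis) against hours of LPS, with wild-type and labelled knock-out in separate panels. Points are single libraries and lines join the group means. Alox5ap is the highest line in both panels, and Cysltr1 is second at 24 h in both.

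LPS was followed by lower RNA of most of the synthesis genes. In wild-type cells, edgeR's quasi-likelihood test with a Benjamini-Hochberg adjusted p under 0.05 called 4 of the 7 genes lower and none higher at 4 h, where it called 62.9% of all genes tested, 28.2% higher and 34.8% lower. At 8 h it called 5 of 7 lower and none higher (65.4% of all genes, 30.3% higher and 35.1% lower), and at 24 h 4 lower and 2 higher (55.1% of all genes, 27.3% lower and 27.8% higher). In the labelled knock-out, 4 genes were lower and none higher at 4 h (62.1% of all genes, 28% higher and 34.1% lower), 5 lower and none higher at 8 h (60.2%, 28.3% higher and 31.9% lower), and 4 lower and 1 higher at 24 h (43.4%, 20.8% lower and 22.6% higher). The median log2 fold change of the 7 genes in wild-type cells was -0.97, -1.52 and -0.74 at 4, 8 and 24 h, beside -0.12, -0.10 and -0.00 over all genes tested. In the labelled knock-out it was -0.62, -1.42 and -0.46, beside -0.10, -0.09 and -0.00. Between 24 and 4 h, 3 genes were called higher and 3 lower in wild-type cells (61.6% of all genes, 32.1% higher and 29.5% lower), and 4 higher and 3 lower in the labelled knock-out (55.7%, 29.5% higher and 26.1% lower). Since so many genes were called in each comparison, the values of each gene are given below. The comparisons within a genotype share their untreated libraries. Untreated cells were profiled at 0 h alone, so time in culture and LPS cannot be told apart. The labels do not say whether libraries come from separate animals or cultures, so p-values measure the spread between these libraries.

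**Figure D2:**
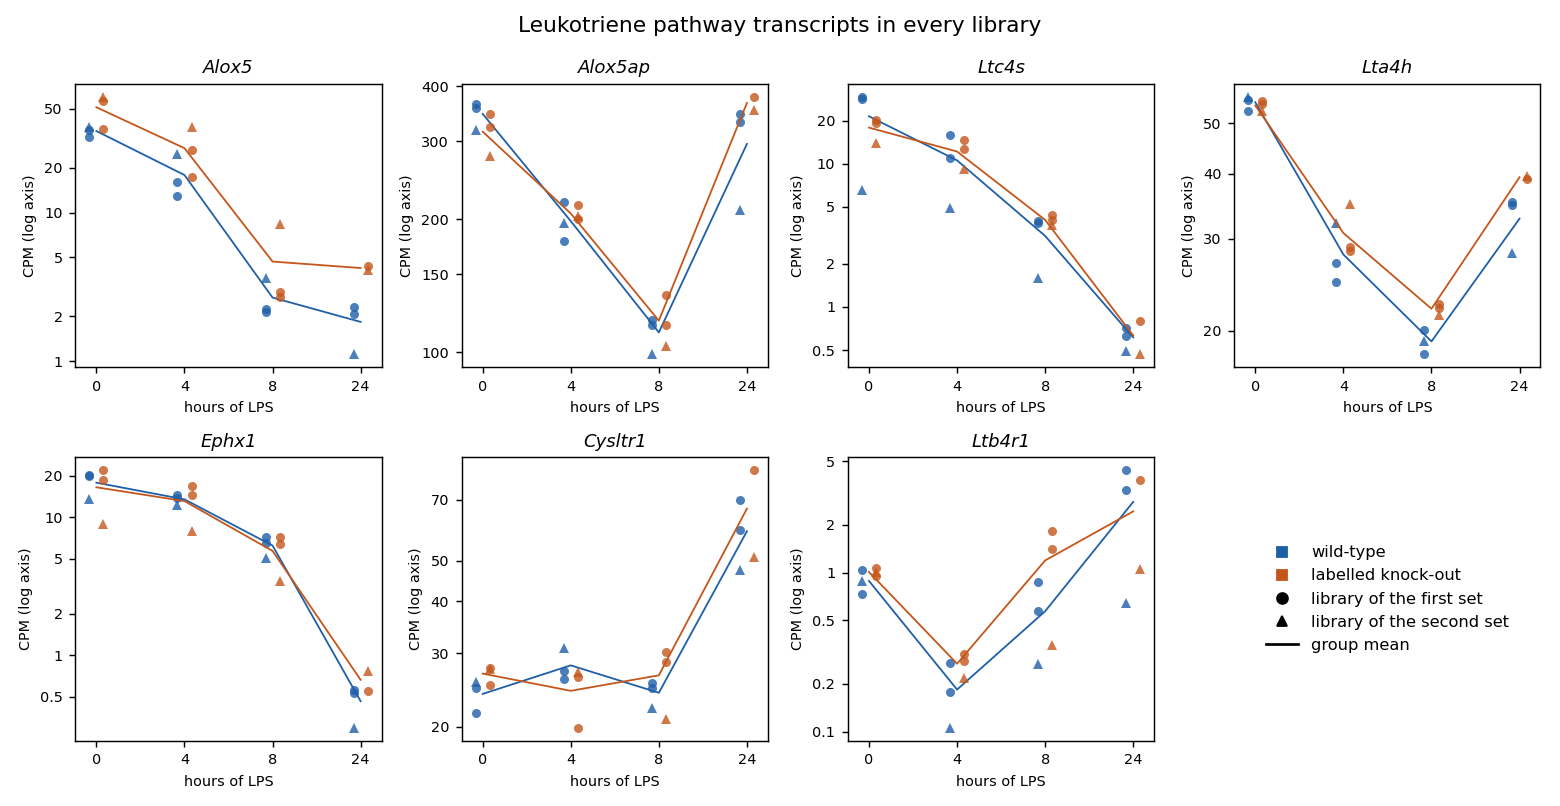
Scaled CPM of each gene in all 23 libraries (log axis) against hours of LPS, with colour for genotype, circles for the first library set, triangles for the second and a line at each group mean. Alox5, Ltc4s and Ephx1 end at 24 h far below their untreated levels, Alox5ap and Lta4h dip at 8 h, and Cysltr1 is highest at 24 h.

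**Figure D3:**
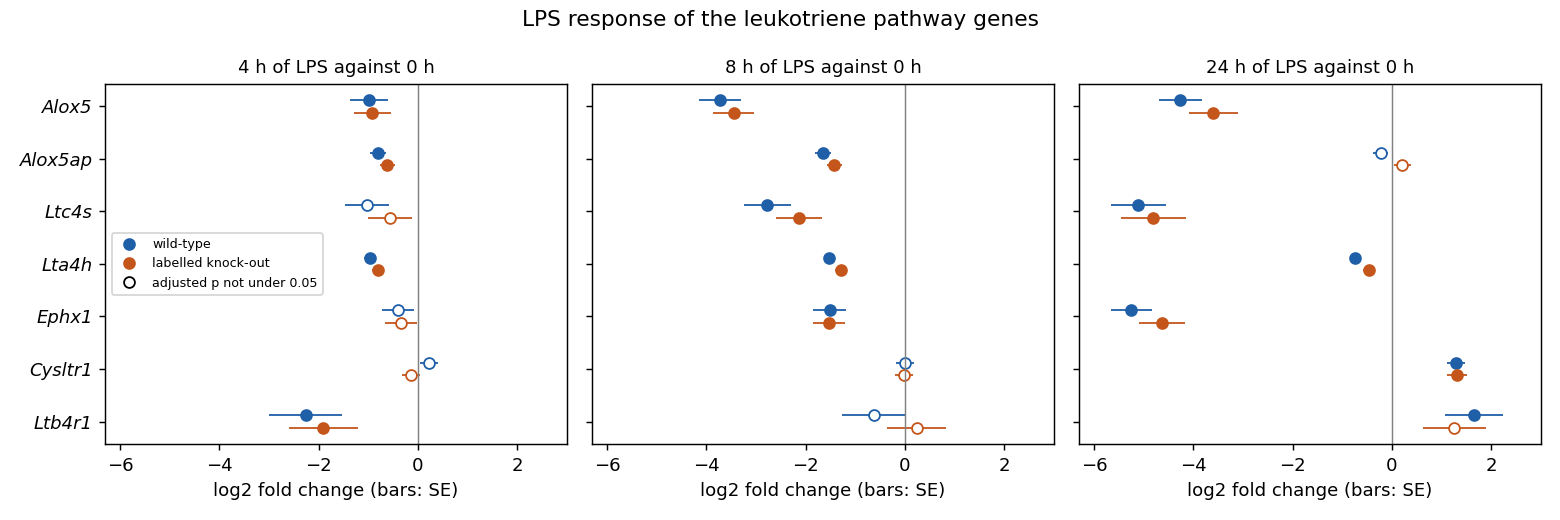
Log2 fold change of each gene against untreated cells of the same genotype at 4, 8 and 24 h, with bars for the standard error; filled points have an adjusted p under 0.05 and open points do not. Both genotypes lie below 0 for Alox5, Lta4h, Ltc4s and Ephx1 at all 3 times and above 0 for Cysltr1 at 24 h.

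Alox5 (ENSMUSG00000025701, GRCm38 chr6:116410077-116461178, minus strand) fell strongly and stayed low. In wild-type cells its 3 libraries were at 32.2, 36.3 and 37.9 CPM untreated, at 12.9, 16.1 and 24.7 at 4 h, at 2.26, 2.12 and 3.65 at 8 h and at 2.09, 2.30 and 1.11 at 24 h. Each of the later groups lay wholly below the untreated one, and the libraries at 8 and 24 h overlapped with each other. The log2 fold change was -0.98 ± 0.37 (SE) at 4 h (edgeR, adjusted p = 0.0283), -3.73 ± 0.42 at 8 h (4.33e-07) and -4.27 ± 0.44 at 24 h (2.1e-07), the last being a 19.2-fold lower level. Labelled knock-out libraries were at 56.7, 60.6 and 36.5 CPM untreated, 26.4, 37.6 and 17.5 at 4 h, 2.93, 8.41 and 2.69 at 8 h, and 4.34 and 4.13 at 24 h. Only the 4 h group overlapped with the untreated one. The changes were -0.92 ± 0.37 (adjusted p = 0.0395), -3.45 ± 0.41 (9.45e-07) and -3.60 ± 0.49 (1.17e-05). Between 4 and 24 h Alox5 fell by 3.28 ± 0.42 on the log2 scale in wild-type cells (edgeR, adjusted p = 2.2e-06) and by 2.68 ± 0.47 in the labelled knock-out (9.26e-05). The 4 h calls were narrow: in wild-type cells the call was lost without library 2, 3, 4 or 5 (adjusted p 0.057 to 0.115), and in the labelled knock-out without library 13, 14, 16 or 18 (0.0912 to 0.163), with RLE scaling (0.0543) or without the 4 libraries of high Selenow together (0.18).

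Neutrophils also carry much Alox5, so the levels of their markers are given here. The 12 genes of the neutrophil list summed to 125 to 159 CPM in untreated wild-type libraries, 88.7 to 117 at 4 h, 60.4 to 89.3 at 8 h and 128 to 334 at 24 h. Without Mmp8, left out after it was seen to rise at 24 h, the summed level of the other 11 in wild-type cells was 103 to 122 CPM untreated, 71.9 to 91.2 at 4 h, 50.4 to 65.0 at 8 h and 7.51 to 9.35 at 24 h. Of 11 tested genes of the neutrophil list, with Mmp8 and without Ly6g, 6 were called lower and 0 higher at 4 h in wild-type cells. The counts were 6 and 2 at 8 h, then 8 and 1 at 24 h. Of all genes, 34.8% were called lower and 28.2% higher at 4 h, 35.1% and 30.3% at 8 h, and 27.3% and 27.8% at 24 h. The 2 called higher at 8 h were S100a8 (0.68 ± 0.24, edgeR, adjusted p = 0.0196) and Cxcr2 (0.77 ± 0.28, 0.0198), while Alox5 was lower. Ly6g, a defining neutrophil marker, had 41 reads over all libraries and at most 0.153 CPM. The part of these cells in the level of Alox5 was not tested. In bulk RNA, fewer cells of a type and less RNA per cell cannot be told apart.

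Alox5ap (ENSMUSG00000060063, chr5:149264767-149288153, plus strand), which encodes the protein that presents arachidonic acid to 5-lipoxygenase, fell and then returned. Wild-type libraries were at 356, 365 and 318 CPM untreated, 219, 179 and 196 at 4 h, 115, 118 and 99.0 at 8 h, and 346, 333 and 209.5 at 24 h. The 4 and 8 h groups lay below the untreated one, while at 24 h 2 libraries were back in the untreated range and library 12 was not. Its log2 fold change was -0.81 ± 0.15 at 4 h (edgeR, adjusted p = 0.000162), -1.64 ± 0.16 at 8 h (5.15e-08) and -0.23 ± 0.15 at 24 h (0.223). Libraries of the labelled knock-out were at 345, 278 and 324 CPM untreated, 215, 203 and 199.7 at 4 h, 135, 103 and 115 at 8 h, and 379 and 354 at 24 h, so that both 24 h libraries were above all untreated ones. The changes were -0.62 ± 0.15 (adjusted p = 0.00192), -1.42 ± 0.16 (3.62e-07) and 0.22 ± 0.17 (0.326). That last value turned to -0.07 when libraries were scaled by their totals alone. From 4 to 24 h Alox5ap rose by 0.58 ± 0.15 in wild-type cells (adjusted p = 0.00314), where the groups overlapped through library 12, and by 0.83 ± 0.17 in the labelled knock-out (0.000406). Of the exonic bases of Alox5ap, 13.3% are shared with the antisense gene Gm19719, which had 178676 reads beside the 242343 of Alox5ap and changed by -0.84, -1.71 and -0.29. Counting did not use strand, so the reads of both genes cannot be told apart over those bases.

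Ltc4s (ENSMUSG00000020377, chr11:50236461-50238616, minus strand) fell at 8 h and again by 24 h, when little was left. The wild-type libraries were at 28.2, 29.4 and 6.52 CPM untreated, 15.8, 10.97 and 4.87 at 4 h, 3.97, 3.82 and 1.59 at 8 h, and 0.627, 0.714 and 0.496 at 24 h. Library 3, of the second set, was well below the other 2 untreated libraries and overlapped with the 4 h group, while the 8 and 24 h groups lay below all untreated libraries. The log2 value against untreated cells was -1.02 ± 0.45 at 4 h (edgeR, adjusted p = 0.0526, not called), -2.77 ± 0.48 at 8 h (5.72e-05) and -5.12 ± 0.55 at 24 h (4.3e-07). The mean at 24 h was 2.86% of the untreated mean, and the fitted level was 34.7-fold lower. For the labelled knock-out the libraries were at 19.2, 14.03 and 20.3 CPM untreated, 12.7, 9.12 and 14.6 at 4 h, 4.37, 3.74 and 4.04 at 8 h, and 0.793 and 0.469 at 24 h. The 4 h group overlapped with the untreated one and the later groups did not. The changes were -0.56 ± 0.44 (adjusted p = 0.288), -2.14 ± 0.47 (0.000632) and -4.81 ± 0.65 (1.11e-05). In wild-type cells at 4 h Ltc4s passed the threshold without library 3 (-1.46, adjusted p = 0.00216), without library 4 (-1.43, 0.0202) and without library 9 (-1.02, 0.0422).

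Mast cells are a rich source of leukotriene C4 synthase, and most of their listed markers other than Hdc were low here. Fcer1a and Mcpt4 had 0 reads, Cpa3 reached at most 0.256 CPM, and the mast cell and basophil list without Hdc summed to 0.335 to 3.35 CPM. Hdc, of the same list, went from 0.987 CPM untreated to 149 at 4 h and 172 at 8 h in wild-type cells, and reached 243 CPM. Kit was at 1.75 CPM untreated, 1.88 at 4 h, 0.410 at 8 h and 0.333 at 24 h in wild-type cells. Gata2 there went from 0.0314 CPM untreated to 0.884 at 8 h. The part of these cells in the level of Ltc4s was not tested. The antisense gene Gm26542 shares 26.4% of the exonic bases of Ltc4s and had 9321 reads beside its 9477. In wild-type cells Gm26542 went from 19.1 CPM untreated to 9.31, 4.22 and 3.30, a smaller drop at 24 h (log2 fold change -2.54) than that of Ltc4s. Reads over the shared bases count for both genes.

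Lta4h (ENSMUSG00000015889, chr10:93453411-93484875, plus strand) had the tightest replicates of the 7 in untreated cells relative to its mean. Wild-type libraries were at 52.8, 55.4 and 56.2 CPM untreated, 24.8, 26.96 and 32.2 at 4 h, 18.1, 20.1 and 19.1 at 8 h, and 34.9, 35.4 and 28.2 at 24 h. All treated libraries were below all untreated ones, and the 8 h libraries were the lowest. Fitted log2 fold changes were -0.97 ± 0.11 at 4 h (edgeR, adjusted p = 2.36e-07), -1.52 ± 0.11 at 8 h (1.42e-09) and -0.74 ± 0.11 at 24 h (1.1e-05). The labelled knock-out libraries started at 54.4, 52.7 and 55.1 CPM untreated and were at 28.4, 35.0 and 28.96 at 4 h, 22.1, 21.5 and 22.5 at 8 h, and 39.2 and 39.6 at 24 h. Here too no treated library reached the untreated range. The changes were -0.81 ± 0.11 (adjusted p = 2.19e-06), -1.29 ± 0.11 (1.05e-08) and -0.46 ± 0.12 (0.00456). The mean thus stood at 34.8% of the untreated mean at 8 h and at 59.8% at 24 h in wild-type cells, and at 40.8% and 72.9% in the labelled knock-out. From 4 to 24 h the difference was 0.23 ± 0.11 in wild-type cells (adjusted p = 0.0699, not called) and 0.36 ± 0.12 in the labelled knock-out (0.0154). Leaving out library 6 (0.34, adjusted p = 0.0123) or 12 (0.30, 0.0216) brought the first past the threshold, and the second was lost without library 16, 18, 22 or 23 (adjusted p 0.0535 to 0.0713). The 24 h call in the labelled knock-out was also lost without the 4 libraries of high Selenow, a fit that leaves library 23 alone at 24 h.

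Ephx1 (ENSMUSG00000038776, chr1:180976210-181020904, minus strand) fell late. Its wild-type libraries were at 19.8, 20.2 and 13.5 CPM untreated, 14.4, 13.8 and 12.3 at 4 h, 7.16, 6.49 and 5.06 at 8 h, and 0.557, 0.536 and 0.297 at 24 h. The 4 h group overlapped with the untreated one through library 3, and each later group lay below the one before it. As a log2 fold change this was -0.40 ± 0.32 at 4 h (edgeR, adjusted p = 0.283), -1.51 ± 0.33 at 8 h (0.000525) and -5.25 ± 0.41 at 24 h (8.96e-09), a 38.0-fold lower level. Those of the labelled knock-out were at 18.6, 8.99 and 21.9 CPM untreated, 14.4, 7.90 and 17.003 at 4 h, 7.25, 3.44 and 6.43 at 8 h, and 0.551 and 0.774 at 24 h. Libraries 14, 17 and 20, of the second set, were the lowest of their groups. The changes were -0.33 ± 0.32 (adjusted p = 0.38), -1.53 ± 0.33 (0.000548) and -4.64 ± 0.47 (3.78e-07). The falls of Ephx1 and Ltc4s at 24 h lay within their standard errors of each other in both genotypes. Between 8 and 24 h the mean CPM went from 6.24 ± 1.07 to 0.463 ± 0.144 (SD, n = 3) in wild-type cells, while that of Alox5 went from 2.68 ± 0.844 to 1.83 ± 0.632.

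Cysltr1 (ENSMUSG00000052821, chrX:106574346-106603679, minus strand), the receptor gene for leukotriene D4, rose late. Wild-type libraries were at 21.6, 24.8 and 25.6 CPM untreated, 27.3, 25.98 and 31.0 at 4 h, 24.8, 25.4 and 22.2 at 8 h, and 59.2, 70.0 and 47.4 at 24 h. The 4 h libraries were all slightly above the untreated ones, and only the 24 h libraries stood far from the others. On the log2 scale the change was 0.23 ± 0.18 at 4 h (edgeR, adjusted p = 0.274), 0.01 ± 0.18 at 8 h (0.968) and 1.30 ± 0.18 at 24 h (7.21e-06), the last being 2.46-fold higher. The libraries labelled knock-out started at 27.7, 27.6 and 25.2 CPM and were at 26.3, 27.03 and 19.9 at 4 h, 28.7, 20.9 and 30.2 at 8 h, and 82.5 and 51.0 at 24 h. Both 24 h libraries were above all the others of that genotype. The changes were -0.14 ± 0.18 (adjusted p = 0.523), -0.01 ± 0.18 (0.952) and 1.31 ± 0.19 (2.75e-05). With libraries scaled by their totals alone, which lowered the median of all genes by 0.61 at 4 h and 0.60 at 8 h in wild-type cells, the wild-type values became -0.38 at 4 h and -0.59 at 8 h, the latter called lower (adjusted p = 0.015). The labelled knock-out values were then called lower as well, at -0.77 (0.00264) and -0.54 (0.0256).

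Ltb4r1 (ENSMUSG00000046908, chr14:55765962-55768494, plus strand), the receptor gene for leukotriene B4, was the lowest of the 7 per length at 0, 4 and 8 h, with 4 to 189 reads in a library. Wild-type libraries were at 0.730, 1.03 and 0.891 CPM untreated, 0.269, 0.177 and 0.106 at 4 h, 0.572, 0.878 and 0.265 at 8 h, and 4.39, 3.30 and 0.644 at 24 h. The 4 h libraries lay below all the untreated ones, and at 24 h 2 libraries were far above them while library 12 was below. The fitted log2 change was -2.26 ± 0.73 at 4 h (edgeR, adjusted p = 0.0118), -0.62 ± 0.63 at 8 h (0.4) and 1.65 ± 0.58 at 24 h (0.0228). Knock-out libraries by label were at 0.956, 1.003 and 1.06 CPM untreated, 0.278, 0.216 and 0.308 at 4 h, 1.41, 0.349 and 1.81 at 8 h, and 3.79 and 1.05 at 24 h. The low libraries at 8 and 24 h, 20 and 23, are of the second set, as is library 12. The changes were -1.91 ± 0.69 (adjusted p = 0.0229), 0.24 ± 0.59 (0.743) and 1.27 ± 0.63 (0.113). With the library set as a model term the last 2 were called, at 0.62 (adjusted p = 0.035) and 2.06 (3.64e-06). In the first set alone the 8 h change was called at 0.71 (adjusted p = 0.0263). The 24 h change there was 1.92 and rested on 1 labelled knock-out library, 22. Second-set libraries differed from the untreated one of their set by -1.52 at 8 h and 0.07 at 24 h, with no test. From 4 to 24 h Ltb4r1 rose by 3.91 ± 0.72 in wild-type cells (adjusted p = 0.00012) and by 3.17 ± 0.72 in the labelled knock-out (0.00108), with no overlap in either. The 24 h rise in wild-type cells was lost without library 1, 3, 10 or 11 (adjusted p 0.0532 to 0.128), with limma-voom (0.0885), in a fit of only the groups compared (0.0624) and with library totals (0.06). The 4 h call was lost without library 6 in wild-type cells (adjusted p = 0.0525), without library 16 (0.0546) or 17 (0.0712) in the labelled knock-out, and with limma-voom in both (0.0607 and 0.089). In the labelled knock-out the 24 h difference was 0.07 without library 22 and 1.91 without library 23, each fit leaving 1 library at 24 h. It was 0.03 without the 4 libraries of high Selenow, which again leaves library 23 alone at 24 h. The difference between 24 and 4 h was 1.98 without library 22.

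None of the 7 genes was called between the genotypes at a single time. The count by edgeR's quasi-likelihood test, labelled knock-out against wild-type cells, was 0 of 7 at each time, where it called 1.52%, 1.24%, 2.2% and 1.19% of all genes at 0, 4, 8 and 24 h. An unadjusted p under 0.05 was reached by 0, 0, 0 and 2 of the 7, and DESeq2 and limma-voom called 0 as well. The 2 were Alox5 and Lta4h at 24 h. Groups did not overlap for Lta4h at 8 h and for Alox5, Alox5ap and Lta4h at 24 h, with the labelled knock-out higher in each. This is a description, without the share of all genes that did not overlap, and none of these differences was called in this test. The response to LPS differed between genotypes for 0 of the 7 genes at each time, beside 0.0442%, 0.0442% and 0% of all genes at 4, 8 and 24 h, and no member had an unadjusted p under 0.05. With DESeq2 and limma-voom 0 of the 7 were called too. The interaction at 24 h was 0.67 ± 0.58 for Alox5 (adjusted p = 0.714), 0.44 ± 0.23 for Alox5ap (0.523) and 0.28 ± 0.16 for Lta4h (0.553).

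Averaged over the 4 times, Alox5 was higher in the labelled knock-out, and it was the single member called, where 6.27% of all genes were called and 3.13% were called higher. Its mean was 51.3 ± 12.9 CPM against 35.4 ± 2.93 in wild-type cells untreated (SD, n = 3 each), 27.2 ± 10.1 against 17.9 ± 6.11 at 4 h, 4.68 ± 3.24 against 2.68 ± 0.844 at 8 h, and 4.23 ± 0.151 (n = 2) against 1.83 ± 0.632 at 24 h. The ranges overlapped at 0, 4 and 8 h and were apart at 24 h. The log2 differences were 0.53 ± 0.37, 0.60 ± 0.37, 0.81 ± 0.41 and 1.20 ± 0.45 (edgeR, adjusted p = 0.632, 0.887, 0.397 and 0.267), and their average was 0.79 ± 0.20 (adjusted p = 0.0219), or 1.72-fold. The 8 h difference was 0.07 without library 20 (adjusted p = 0.949). Within the first library set the average was 0.59 (adjusted p = 0.0041) and the 8 h difference 0.35 (0.466), with the set as a model term it was 0.78 (4.96e-05), and the second set alone, with 1 library a group and no test, gave 0.68, 0.61, 1.21 and 1.89 at the 4 times. The call was lost without the 4 libraries of high Selenow (0.82, adjusted p = 0.0927) and without library 22 alone (0.78, 0.0517). The average takes the libraries of the 4 times as independent, and the labels do not say whether they share animals or cultures. If they do, its p-values may be too small. The 12 neutrophil genes summed to 208 to 235 CPM in the labelled knock-out untreated, 148 to 178 at 4 h, 78.5 to 121 at 8 h and 171 to 197 at 24 h, above the wild-type range at 0 and 4 h and overlapping with it at 8 and 24 h. Without Mmp8 the sums were 181 to 186, 121 to 157, 65.7 to 92.0 and 18.5 to 20.4 CPM, above the wild-type range at each time. In the average over times 6 of 11 tested genes were called higher and 0 lower, among them Ltf (1.32 ± 0.09), Ngp (1.15 ± 0.09) and S100a8 (0.78 ± 0.13). Stromal markers (6 genes) were called higher for 4 and lower for 0, with sums of 1.62 to 40.8 CPM in wild-type and 1.78 to 98.8 CPM in labelled knock-out libraries. The part of either list in the Alox5 difference was not tested.

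The other 6 genes were not called in the average, at 0.15 ± 0.05 for Lta4h (edgeR, adjusted p = 0.135), 0.40 ± 0.34 for Ltb4r1 (0.596), 0.09 ± 0.25 for Ltc4s (0.904), 0.08 ± 0.08 for Alox5ap (0.654), 0.07 ± 0.09 for Cysltr1 (0.754) and 0.05 ± 0.18 for Ephx1 (0.922). The library set was also a term in the model, with its own shift at each time. The spread within groups then no longer holds the difference between sets. With this term the labelled knock-out was called higher at 24 h for Alox5 (1.30, adjusted p = 0.00282), Alox5ap (0.42, 0.015) and Lta4h (0.30, 0.0121). The first set holds 1 labelled knock-out library at 24 h, library 22, with Selenow at 102% of the wild-type mean. In that set alone the differences were 0.97, 0.15 and 0.15. The second-set pair of libraries at 24 h differed by 1.89, 0.76 and 0.49, with no test. Since the sets were found in these same data, p-values from the set term may be too small.

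**Figure D4:**
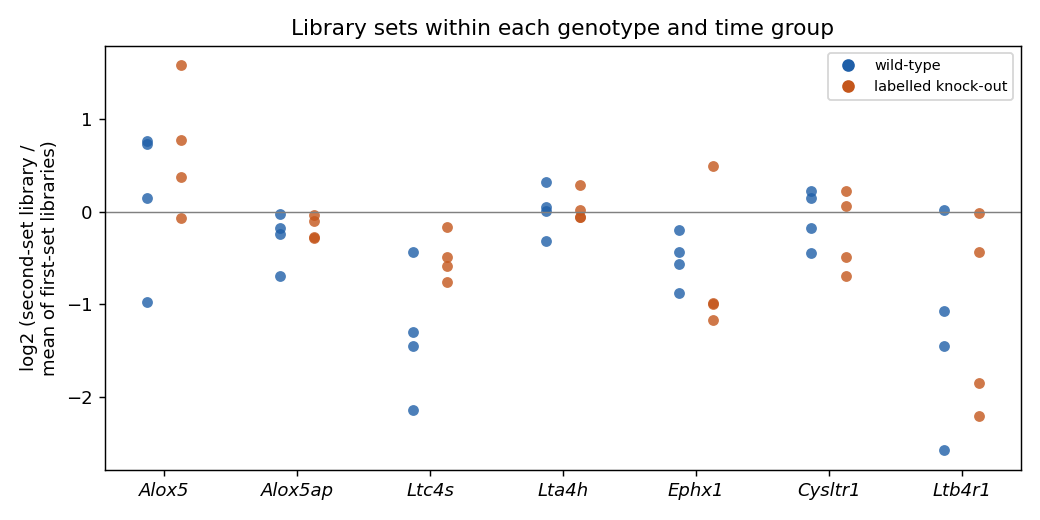
Log2 ratio of the second-set library to the mean of the first-set libraries in each of the 8 groups, for each gene, with colour for genotype. Ltc4s lies below 0 in all 8 groups and Ephx1 in 7, while Alox5 is above 0 in 6.

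The second-set libraries differed from the first in the same direction across groups for some of these genes. Ltc4s was below the whole first-set range in 8 of 8 groups, with a median log2 difference of -0.67, and Ephx1 in 7 of 8 (-0.72). Ltb4r1 was below it in 6 and within it in 2 (-1.26), and Alox5ap was below it in 6 (-0.21). Alox5 was above it in 6 groups and below it in 2 (0.56), whereas Lta4h and Cysltr1 went both ways (0.01 and -0.06).

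Upstream of 5-lipoxygenase, genes that release or recycle arachidonic acid moved in both directions. Of 14 listed genes 13 were tested, and in wild-type cells 5 were called higher and 3 lower at 4 h, then 6 and 4 at 8 h, and 6 and 3 at 24 h, where 62.9%, 65.4% and 55.1% of all genes were called in either direction. The list medians were -0.67, 0.06 and 0.61. Pla2g4a, the cytosolic phospholipase that frees arachidonic acid, rose from 43.6 to 164 CPM at 4 h (log2 fold change 1.92 ± 0.30) and was still higher at 8 h (1.31 ± 0.29) and 24 h (1.28 ± 0.29). Pla2g4c rose by 3.69 ± 0.76 at 4 h, from 0.163 to 2.14 CPM. Pla2g7, which encodes the secreted hydrolase of platelet-activating factor, rose from 85.9 to 303 CPM at 4 h (1.82 ± 0.40) and by 3.55 ± 0.43 at 24 h. Pla2g15, a lysosomal phospholipase, fell from 96.3 to 13.3 CPM at 4 h (-2.86 ± 0.32). Acsl4, which activates arachidonic acid for storage in phospholipids, rose by 1.30 ± 0.10 at 24 h. In the labelled knock-out 4 were called higher and 4 lower at 4 h, then 7 and 2 at 8 h, and 8 and 2 at 24 h. There 62.1%, 60.2% and 43.4% of all genes were called. Between genotypes, 1 of the 13 was called in the average, where 6.27% of all genes were. It was Lpcat2 (0.61 ± 0.16), which encodes an enzyme that makes platelet-activating factor.

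Genes of proteins that bind or phosphorylate 5-lipoxygenase were called in both directions. Of 9 tested genes 2 were called higher and 4 lower at 4 h in wild-type cells (28.2% and 34.8% of all genes), then 3 and 5 at 8 h (30.3% and 35.1%), and 2 and 5 at 24 h (27.8% and 27.3%), with list medians of -0.17, -0.53 and -0.28. Calls in the labelled knock-out were 2 and 5 (28% and 34.1% of all genes), 3 and 5 (28.3% and 31.9%), and 0 and 3 (22.6% and 20.8%). Between genotypes, 1 of the 9 was called higher in the labelled knock-out at 8 h, where 2.2% of all genes were called. In the average over times 1 was called higher, where 6.27% of all genes were called. Mapkapk2, a kinase of the p38 pathway that phosphorylates 5-lipoxygenase, rose from 398 to 1753 CPM at 4 h (log2 fold change 2.14 ± 0.17). Camk2g, another kinase of the list, fell from 30.3 to 3.93 CPM at 4 h (-2.95 ± 0.13) and remained called lower at 24 h (-0.54). Cotl1, which encodes coactosin-like protein, a binding partner of 5-lipoxygenase, fell from 674 to 285 CPM at 24 h (-1.24 ± 0.19).

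Among the relatives of FLAP and leukotriene C4 synthase (the MAPEG family) and the glutathione transferases listed with them, 1 of 6 was called higher and 2 lower at 4 h in wild-type cells, and 2 and 1 at both 8 and 24 h, with list medians of -0.08, 0.33 and 0.40. The labelled knock-out had 1 and 0, 2 and 1, and 2 and 1. Over all genes the shares called higher and lower were 28.2% and 34.8%, 30.3% and 35.1%, and 27.8% and 27.3% in wild-type cells. They were 28% and 34.1%, 28.3% and 31.9%, and 22.6% and 20.8% in the labelled knock-out. Ptges, the inducible prostaglandin E synthase of that family, rose from 1.77 to 286 CPM at 4 h (log2 fold change 7.33 ± 1.05) and reached 906 CPM at 8 h (8.996 ± 1.12). Mgst3 fell at all 3 times, by 2.38 ± 0.25 at 24 h, from 33.3 to 6.39 CPM, while Mgst2, whose product can also make leukotriene C4, rose by 1.54 ± 0.49 at 8 h and 1.43 ± 0.48 at 24 h. Of 6 other lipoxygenase genes 2 passed the filter. Alox12 rose by 5.12 ± 0.61 at 4 h, from 0.0751 to 2.70 CPM, and Alox15 fell by 2.06 ± 0.73 at 24 h. None of the 3 other listed epoxide hydrolase genes passed the filter.

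Of 12 genes of leukotriene export, processing and breakdown 8 were tested, and 2 were called higher and 3 lower at 4 h in wild-type cells, then 1 and 2 at 8 h, and 3 and 4 at 24 h, with list medians of -0.47, -0.31 and -0.35. The same counts in the labelled knock-out were 2 and 3, 3 and 3, and 2 and 3. Shares of all genes called higher and lower were 28.2% and 34.8%, 30.3% and 35.1%, and 27.8% and 27.3% in wild-type cells. For the labelled knock-out they were 28% and 34.1%, 28.3% and 31.9%, and 22.6% and 20.8%. Abcc1, the transporter of leukotriene C4, rose by 0.89 ± 0.14 at 4 h, from 172 to 318 CPM, and Abcc4 rose by 1.92 ± 0.17, from 35.0 to 132 CPM. Cyp4f18, a cytochrome that hydroxylates leukotriene B4, rose at 24 h from 20.02 to 39.9 CPM (0.99 ± 0.31). Cyp4f16 was lower at all 3 times (-1.05, -0.82 and -0.70), and Ggt5, which trims leukotriene C4 to leukotriene D4, fell by 2.37 ± 0.52 at 8 h.

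The second cysteinyl leukotriene receptor, Cysltr2, was called higher at each time from 4 h on. Wild-type libraries were at 0.412, 0.406 and 0.493 CPM untreated, 3.52, 3.81 and 5.61 at 4 h, 2.98, 2.66 and 4.56 at 8 h, and 2.14, 1.72 and 5.72 at 24 h, with no overlap between treated and untreated libraries. The log2 fold change was 3.30 ± 0.42 at 4 h (edgeR, adjusted p = 1.65e-06), 2.95 ± 0.42 at 8 h (6.8e-06) and 2.86 ± 0.42 at 24 h (1.46e-05). In the labelled knock-out it was 3.10 ± 0.42, 2.29 ± 0.42 and 1.96 ± 0.45, and it fell by 1.14 ± 0.43 between 4 and 24 h (adjusted p = 0.0311). P2ry12, a purinergic receptor that has been linked to leukotriene E4, fell at each time in wild-type cells, from 27.97 to 6.30 CPM at 24 h (-2.15). The second leukotriene B4 receptor, Ltb4r2, had 48 reads over all libraries and at most 0.177 CPM, and was not tested. Oxgr1 had 0 reads.

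**Figure D5:**
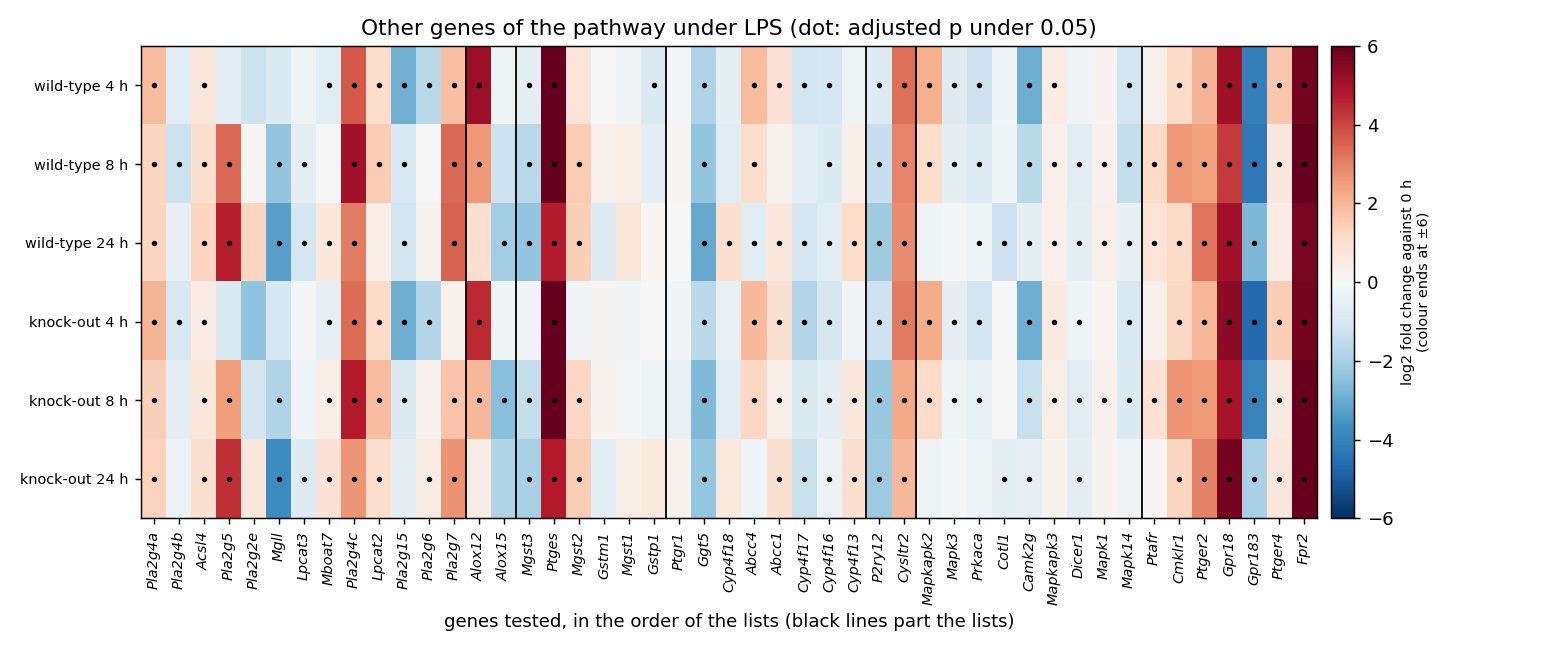
Heat map of the log2 fold change against untreated cells of the same genotype for the other listed genes that were tested (columns, by list). Rows are 4, 8 and 24 h in each genotype. A dot marks an adjusted p under 0.05, and colours end at a change of 6 in either direction. Fpr2 and Ptges are among the strongest rises, and Gpr183 is among the strongest falls.

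Receptors for lipid mediators that end inflammation, and related receptors, were mostly called higher. Of 8 genes 7 were tested, and 5 were called higher and 1 lower at 4 h in wild-type cells, then 6 and 1 at 8 h, and 5 and 1 at 24 h, with list medians of 1.61, 2.41 and 1.15. The counts of the labelled knock-out were the same at each time. Over all genes, 28.2%, 30.3% and 27.8% were called higher and 34.8%, 35.1% and 27.3% lower in wild-type cells. In the labelled knock-out these shares were 28%, 28.3% and 22.6% higher and 34.1%, 31.9% and 20.8% lower. Fpr2, a receptor for formyl peptides and lipoxin A4, rose from 2.52 to 137 CPM at 4 h (log2 fold change 5.76 ± 0.47) and to 361 CPM at 8 h (7.16 ± 0.50). Gpr183, a receptor for oxysterols, fell from 39.04 to 2.28 CPM at 4 h (-4.10 ± 0.32). Cmklr1, the chemerin receptor, rose from 29.5 to 179 CPM at 8 h (2.60 ± 0.35), and Ptger2, a receptor for prostaglandin E2, rose by 3.19 ± 0.24 at 24 h.

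The 7 genes differed in how they varied together over the 23 libraries, which share their groups and sets, so the following correlations of log2 CPM are descriptions. Ltc4s and Ephx1 were the closest pair (Pearson's r = 0.941), followed by Alox5ap with Lta4h (0.888) and Alox5 with Ltc4s (0.813), and Ephx1 ran opposite to Cysltr1 (-0.855). Alox5 and its partner Alox5ap were at only 0.401. Among all tested genes with a mean of at least 5 CPM, the gene most like Alox5 was Cryl1 (0.969), that most like Alox5ap was Abhd14b (0.968), and that most like Lta4h was Marveld1 (0.978). For Ltc4s it was Aplp2 (0.969), for Ephx1 Ctse (0.976), for Cysltr1 Aga (0.924) and for Ltb4r1 Pelo (0.953). Rsu1 was among the 3 closest genes of both Ltc4s (0.962) and Ephx1 (0.969). These names depended on the measure: of the 21 pairs of a member with a gene named by Pearson's r over libraries, 2 were shared with those from the 8 group means and 3 with those from Spearman's rho.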

How the data were processed

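Bulk RNA-seq was available for 23 libraries, named by their running numbers in the labels. The deposited table holds raw counts, 1 for each read pair assigned to a gene. The authors, per the submitters' processing notes and the file headers, aligned with HISAT2 (version not given in the sources used here) and counted with featureCounts 2.0.1 over Ensembl release 101 exons of GRCm38. Both strands were counted together, pairs that overlap several genes added to each, and multiply aligned pairs were left out. The deposited table's length column gave CPM per kb. Of 55401 genes, 55141 were named through GENCODE mouse release 21.

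The 7 genes, all other lists and the motifs were chosen with earlier results of these data known. One fit of 8 group means over all libraries was made with edgeR 4.0.16 in R 4.3.3: TMM scaling, filterByExpr (18083 genes kept), the quasi-likelihood F-test, two-sided, Benjamini-Hochberg adjustment within each of 16 comparisons, and calls at an adjusted p under 0.05. The fit was tested on simulated data. Standard errors (SE) were the absolute log2 fold change over the square root of F. Levels are CPM on TMM-scaled totals. Named from each other list were up to 4 called genes a comparison, by the size of the change among genes averaging 1 CPM or more, and the text prints part of them. Likeness was Pearson's r of log2 CPM with a prior count of 2. Alternatives were DESeq2 1.42.0, limma-voom (limma 3.58.1), RLE and upper-quartile scaling, other filters and thresholds, only the groups compared, a library set term, and leaving out each library or libraries 13, 16, 19 and 22. The library set term gave each time its own shift between the sets. Library totals alone and the fit of the first set alone were added after seeing the data. The second set, with 1 library a group, was not fitted. Even the most alike replicates differed by more than sampling noise (lowest chi-square per degree of freedom 6.93 over 22 pairs). A count of 3 in the shallowest scaled library is 0.0926 CPM, for counting error only. Promoter sequences came from a RefSeq table of GRCm38.p6.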

Additional observations from a re-analysis of the deposited data

How the results depend on the processing

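No paired analysis was possible because no replicate number in the labels occurs in 2 groups; library sets found in the data entered a set term instead. The 61 results on single genes tallied here were changes against 0 h and between 24 and 4 h, plus genotype differences of Alox5 alone. Genotype differences of the other genes and all interactions lie outside this tally. Of the 61, the filter of 1 CPM in 3 libraries kept all 61 in direction and call, DESeq2 kept 60, RLE and upper-quartile scaling and no filter 59 each, only the groups compared 58, limma-voom 57, and 55 held without libraries 13, 16, 19 and 22. An adjusted p under 0.01 kept 54, the set term and the first set 53 each, a fold of 1.5 49 and library totals 48 (4 reversed). The number of the 7 genes called went from 4 to 2 in wild-type cells at 4 h with an adjusted p under 0.01 and with a test against a fold of 1.5, and from 4 in the labelled knock-out at 4 h to 2, 1, 7 and 2 with an adjusted p under 0.01, the fold of 1.5, library totals only and without libraries 13, 16, 19 and 22. Between genotypes it went from 0 to 1 at 0 h (first library set, Ltc4s), from 0 to 1 at 8 h (first set or set term, Ltb4r1) and from 0 to 3 at 24 h (set term). In the average it went from 1 to 0 (adjusted p under 0.01, fold of 1.5, or without those 4 libraries), 2 (first set) or 3 (set term), and the interaction at 24 h went from 0 to 2 with the set term (Alox5ap 0.56, Lta4h 0.32). With 1 library left out, the counts ranged from 3 to 5, 5 to 5 and 5 to 6 at 4, 8 and 24 h in wild-type cells, from 2 to 4, 5 to 5 and 5 to 6 in the labelled knock-out, from 6 to 7 and 5 to 7 between 24 and 4 h, from 0 to 0 between genotypes at each time and for each interaction, and from 0 to 1 in the average. Other pathway genes called in wild-type cells at 24 h went from 35 to 19 with the fold of 1.5. The untreated wild-type level of Lta4h was 9.31 CPM per kb with upper-quartile scaling. Over all genes, calls between genotypes at 0, 4, 8 and 24 h and in the average went from 274, 224, 397, 216 and 1134 to 2467, 842, 2931, 3530 and 4321 with the set term, the interactions from 8, 8 and 0 to 158, 2302 and 2957, and calls against untreated cells in wild-type from 11382, 11824 and 9963 to 7384, 7509 and 5286 with the fold of 1.5.

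Some values near 0 changed sign. Alox5ap in the labelled knock-out at 24 h became -0.069 with library totals. Cysltr1 in wild-type cells became -0.38 at 4 h and -0.59 at 8 h with library totals and -0.061 at 8 h with upper-quartile scaling, and ranged from -0.064 to 0.067 at 8 h with 1 library left out. In the labelled knock-out at 8 h Cysltr1 became 0.043 with DESeq2, 0.043 with RLE scaling, 0.016 with only the groups compared, 0.12 with the set term and 0.19 in the first set, and ranged from -0.12 to 0.13 with 1 library left out. Ltb4r1 there became -0.29 with library totals and -0.053 with limma-voom, and ranged from -0.19 to 0.68. The cause was not tested. Some 4 h results not called passed the threshold in the first set: Ltc4s (-1.07 and -0.49) and Ephx1 (-0.47 and -0.33) in wild-type and labelled knock-out cells. With 2 or 3 libraries a group, reads of Ltb4r1 in single figures and sets that differ, the fit of 8 group means may miss small changes of Ltb4r1 and Ltc4s.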
